A study of Mus musculus with 2 samples.

Results

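The genes described here encode collagens, laminins, matrix metalloproteinases and their tissue inhibitors (TIMPs), together with 8 genes named individually: Lum, Dcn, Bgn, Fn1, Sparc, Acta2, Pdgfrb and Tgfb1. Their signals were compared between livers of control and squalene-treated mice. Members were matched by gene symbol, and they were chosen with earlier results of these data known. The pattern of symbols gave 68 genes and the individual names 8, so that 76 of the 12393 genes with a single-symbol probe set were members. They were read by 126 probe sets, which are groups of short oligonucleotides on the array that together report on 1 transcript. Where a gene had several, the one brightest on average over both pools (on the log2 scale) stands for it.

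The liver RNA came from male mice that were apolipoprotein E-deficient, of C57BL/6J/OLA129 background, for which an age of 2 months is given. All mice ate chow and drank 1% glycerol for 10 weeks. In the squalene pool the drink also supplied squalene, the triterpene from which cells make sterols, at a dose of 1 g/kg/day. Each pool was hybridised to 1 array, so every ratio compares these 2 pools, no test between the groups is possible, and the spread between animals is not measured. The sources used here do not give how many livers each pool held. Apoe itself read 141.0 in the control pool and 130.6 with squalene on 1 probe set, and whether that probe set lies in the deleted part is not given there either.

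In liver, the fibrous collagens, lumican and decorin are made mainly by stellate cells and portal fibroblasts, which lie beside the sinusoids and in the portal tracts. On injury these cells take on a contractile, matrix-producing form, marked by smooth muscle actin (Acta2) and the platelet-derived growth factor receptor (Pdgfrb), under signals that include transforming growth factor beta. Basement membrane proteins such as type IV collagen and the laminins underlie vessels and bile ducts, whereas hepatocytes themselves secrete fibronectin and type XVIII collagen. Matrix metalloproteinases cut these proteins and TIMPs block the metalloproteinases. The array reads whole liver, so fewer cells of a type and less RNA per cell cannot be told apart.

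Among the matrix genes that both arrays read clearly, 6 stood lower in the squalene pool by more than 0.5 on the log2 scale: Acta2, Lum, Col1a2, Pdgfrb, Col3a1 and Col6a3. Clearly read here means a signal at or above the array median on both arrays. Col6a3 (45.2) and Pdgfrb (46.3) sat just above it in the squalene pool. These 6 of 26 (23.1%) compare with 6.35% of all genes so read. All 6 were among the 17 members so read with a mean signal below 134.9, where 10.2% of all genes so read were lower. Col12a1 alone stood higher by that margin (3.85%, against 7.85% of all). With the arrays scaled to their spike-ins, 2 of the 26 were lower and 5 higher. The other well-read members went both ways. Col14a1 (-0.42) and Col6a2 (-0.41) stood lower, Dcn (-0.07) was near level, and Sparc (0.16) and Col5a2 (0.44) stood higher. These examples were picked after the values were seen. Of all 26, 16 lay below 0 and 10 above. The 6 well-read markers of stellate cells and myofibroblasts outside the member list had a median of 0.01. The brightly read Fn1, Dcn and Col18a1 differed by at most 0.07 on the probe sets used. A second, well-read Fn1 probe set of lower signal gave 0.76. None of the 26 clearly read members passed the log2 limit of 1.5 that the submitters used as their screen; of all genes so read, 0.0774% were higher and 0.0464% lower past it.

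RefSeq holds an annotated promoter window for 4 of these 7 genes, Acta2, Col1a2, Col3a1 and Col6a3, and their upstream sequences are printed because these members read lower together. This choice was made after the ratios were seen. Each run is the 250 bases before the annotated start, 5′ to 3′ on the gene's strand, and capitals mark motif matches on either strand. The box spelled CCAAT binds the factor NF-Y, and the letters TATAA are those of a common core promoter element. A GC box, searched as GGGCGG, binds factors of the Sp family, and the AP-1 element was searched as TGANTCA. Proteins of the SMAD family, the effectors of transforming growth factor beta, bind CAGAC. No search letters of different motifs overlapped in these windows.
Col1a2, GRCm38.p6, chr6:4505368-4505617, plus strand: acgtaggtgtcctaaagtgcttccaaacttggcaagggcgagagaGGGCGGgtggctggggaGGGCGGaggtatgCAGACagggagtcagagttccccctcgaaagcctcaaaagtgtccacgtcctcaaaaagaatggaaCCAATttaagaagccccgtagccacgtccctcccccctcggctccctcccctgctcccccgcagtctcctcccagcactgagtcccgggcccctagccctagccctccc
Col3a1, GRCm38.p6, chr1:45311288-45311537, plus strand: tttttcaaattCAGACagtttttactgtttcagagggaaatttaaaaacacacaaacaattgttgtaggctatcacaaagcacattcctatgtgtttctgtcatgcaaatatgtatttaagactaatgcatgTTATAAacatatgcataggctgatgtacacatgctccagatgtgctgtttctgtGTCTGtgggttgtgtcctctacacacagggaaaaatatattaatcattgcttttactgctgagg
Acta2, GRCm38.p6, chr19:34255374-34255623, minus strand: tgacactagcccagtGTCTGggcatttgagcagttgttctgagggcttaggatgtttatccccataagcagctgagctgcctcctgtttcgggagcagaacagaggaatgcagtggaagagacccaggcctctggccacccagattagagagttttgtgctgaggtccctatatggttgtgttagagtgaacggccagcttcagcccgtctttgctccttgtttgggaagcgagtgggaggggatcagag
Col6a3, GRCm38.p6, chr1:90843972-90844221, minus strand: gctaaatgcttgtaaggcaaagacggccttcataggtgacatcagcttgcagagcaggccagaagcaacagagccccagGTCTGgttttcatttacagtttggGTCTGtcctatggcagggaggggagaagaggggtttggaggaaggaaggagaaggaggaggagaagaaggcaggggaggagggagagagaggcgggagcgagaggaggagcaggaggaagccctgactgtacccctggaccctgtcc
CAGAC was found in all 4 windows, and in 42.2% of the 32851 RefSeq windows of the same length. The Col1a2 window also held CCAAT once and GGGCGG at 2 places, motifs found in 33.8% and 32.7% of all windows. That of Col3a1 held TATAA, found in 22.8% of all windows, in both orientations at 2 overlapping places. None of the 4 held TGANTCA, which 6.75% of all windows hold. The base composition of the 4 windows differed widely, from 35.2% G and C with 0 CpG dinucleotides for Col3a1 to 62.0% with 11 for Col1a2, against a median of 52.4% over all windows. These are matches of letters and do not show that a factor binds.

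Signals are given in the units of the MAS5 algorithm, and a signal below the array median, 39.9 in the control pool and 41.4 with squalene, is treated as dim. A gene is called measured here when at least 1 of its signals reached the median of its array, and well read when both did. Of the 76 members, 26 were well read, 6 were measured in 1 pool only, and 44 were dim in both. The 18 hybridization spike-in probe sets, which track labelled RNA added in known amounts, all read lower on the squalene array (median -0.26 on the log2 scale). Scaling to them would raise every ratio by 0.26 and so turn ratios and medians between -0.26 and 0 positive, among them those of Timp2, Timp3, Lama5, Col5a3, Dcn and Col18a1, but would leave the 6 lower genes below 0.

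Over all 76 members the median log2 ratio was -0.06, beside 0.01 over all 12393 genes. Past 0.5, 20 members were higher and 23 lower, or 26.3% and 30.3%, against 21.5% and 19.8% of all genes. Scaled to the spike-ins, the split was 26 higher and 15 lower. Past 1.5, 7 members were higher and 9 lower (9.21% and 11.8%, against 7.86% and 7.3% of all genes), and 15 of these 16 were dim in both pools. Mmp17 was the exception, and it was dim in the squalene pool. It was thus 1 of 32 measured members, where 1.12% of all measured genes were higher and 1.15% lower past 1.5.

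Restricting the count to members whose mean signal over both pools reached the median left 27, the 26 well-read members and Col2a1. Of these 27, 6 were lower and 2 higher past 0.5 (22.2% and 7.41%), against 7.98% and 8.97% of the 6781 genes with such a mean. Most well-read members were of modest signal: 17 of the 26, including all 6 lower, had a mean signal below 134.9. Among the 2418 well-read genes under that signal, 10.2% were lower and 12.1% higher past 0.5. The median over the 26 was -0.08, beside 0.01 over all 6459 well-read genes. With spike-in scaling Acta2 and Lum were the 2 well-read members lower past 0.5.

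**Figure D1:**
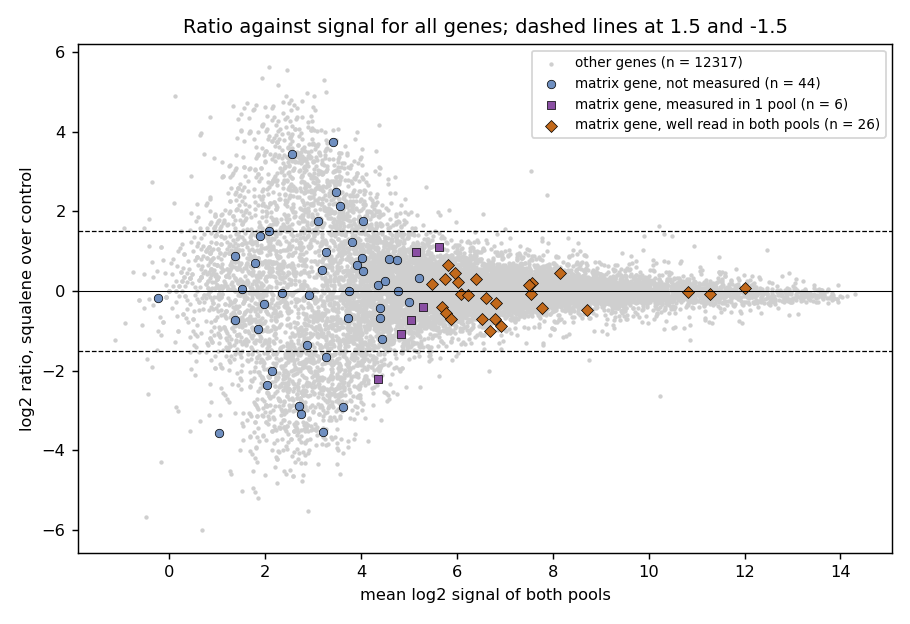
Log2 ratio of squalene over control (vertical axis) against the mean log2 signal of both pools (horizontal axis), 1 point per gene, with the 76 matrix genes drawn as circles (44 not measured), squares (6 measured in 1 pool) and diamonds (26 well read) over the other 12317 genes in grey. The matrix genes beyond the dashed lines at 1.5 and -1.5 lie at low signal, while all 26 diamonds lie between those lines.

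With 1 array per pool, the spread could be taken only from genes that several probe sets read. Between well-read probe sets of a gene, the SD of the log2 ratio was 0.36 in the dimmest of 3 equal signal classes, 0.30 in the next and 0.20 in the brightest, with 715 genes in each. Probe sets of a gene share the RNA and the array, so this SD leaves out the spread between animals and pools. By this measure 9 of the 26 well-read members lay more than 1 SD below 0 and 3 more than 1 SD above it (34.6% and 11.5%), against 17.2% and 19.1% of all well-read genes. More than 2 SD from 0 in either direction lay 3 members, Acta2, Lum and Bgn (11.5%, against 9.01% of all). The other well-read probe sets of Bgn gave 0.15 and 0.19, and a dim second probe set of Acta2 gave 0.63.

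**Figure D2:**
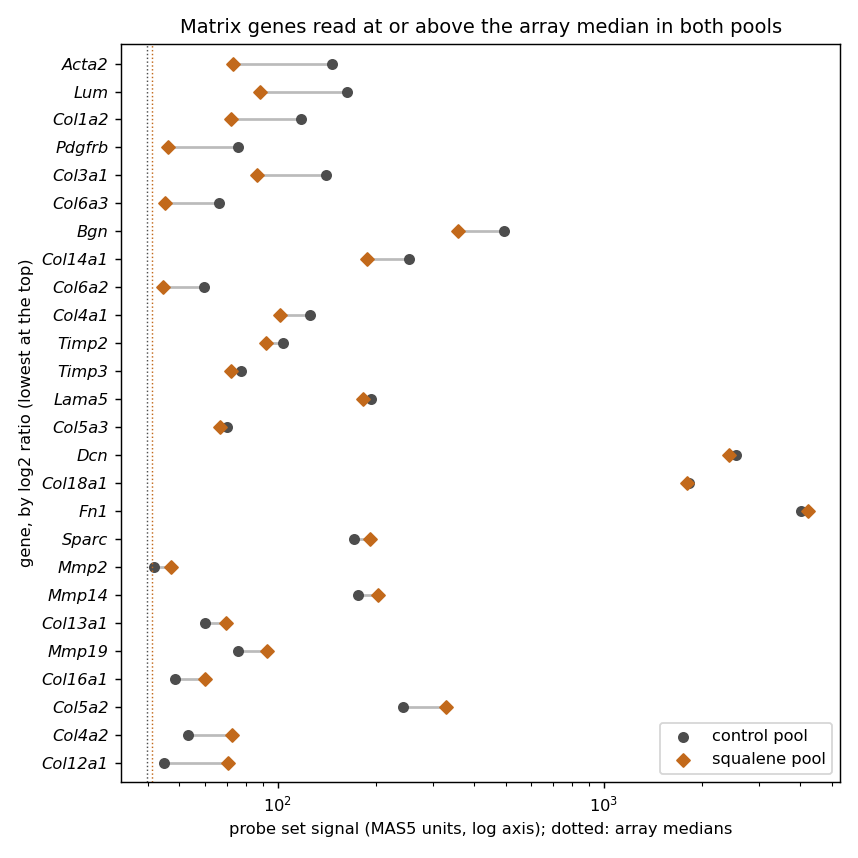
Signals of the 26 well-read matrix genes in the control pool (grey circles) and the squalene pool (orange diamonds), in MAS5 units on a log axis, ordered by log2 ratio with the lowest at the top; dotted lines mark the array medians of 39.9 and 41.4. The grey circle lies clearly to the right of the diamond from Acta2 (146.6 against 73.1) down to Col6a2, the points nearly coincide for Dcn, Col18a1 and Fn1, and the order is turned for Col5a2, Col4a2 and Col12a1.

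Fibrillar collagens form the rope-like fibres of the interstitial matrix. Of 9 members, 4 were well read, and they went both ways. Col1a2, the alpha 2 chain of type I collagen, read 118.1 in the control pool and 72.2 with squalene, a log2 ratio of -0.71 or 1.64-fold lower. Its other probe set was dim at 13.5 and 10.3 (-0.39). Col3a1, the type III collagen of reticular fibres, read 140.6 and 86.4, which is 1.63-fold lower (-0.70). Its second probe set, dim at 14.1 and 1.7, also lay below 0. Both genes thus stood lower by about the same ratio, each by slightly less than 2 SD between probe sets.

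Type V collagen, which joins types I and III in mixed fibrils, did not follow them. Col5a2 read 241.9 in the control pool and 329.0 with squalene, a log2 ratio of 0.44, and its second probe set (26.9 and 49.6) gave 0.88. Col5a3 was nearly level, at 69.9 and 66.4 (-0.07). Col5a1 could not be placed, since its probe sets gave 0.97 (25.4 and 49.8), -1.08 (40.5 and 19.1) and -1.38 (15.6 and 6.0). Col5a2 lies next to Col3a1 in the genome, and the neighbours differed in sign.

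Col1a1, the partner chain of Col1a2, was dim on both probe sets, with signals of 17.0 and 5.4 on the first and 6.7 and 7.9 on the second. Its ratios of -1.65 and 0.24 therefore place it in neither direction. The cartilage collagen gene Col2a1 read 33.7 in the control pool and 72.7 with squalene (1.11) on a single probe set, so the control signal was below the median. Col11a1 and Col11a2, also cartilage collagens, were dim in both pools.

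The 3 well-read basement membrane collagens showed no common direction. Col18a1, the precursor of endostatin, read 1829.2 in the control pool and 1793.1 with squalene (-0.03), and its other probe set 1200.8 and 1191.0 (-0.01). These probe sets gave almost the same value in both pools. Col4a1 and Col4a2, whose chains combine in the main type IV network and whose genes lie side by side, read 125.4 and 101.4 (-0.31) and 53.0 and 72.3 (0.45). The second probe set of Col4a1 gave 25.8 and 45.6 (0.82), so this gene has no settled sign. The other 5 genes of the class, Col4a3 to Col4a6 and Col15a1, were dim in both pools, with signals from 2.3 to 26.5 and ratios from -3.08 to 2.50.

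Among the remaining collagens, type VI and type XIV read lower and 3 others higher. Col6a3, a chain of the beaded filaments around cells, read 66.3 in the control pool and 45.2 with squalene (-0.55), on 1 probe set. Its partner Col6a2 read 59.4 and 44.7 (-0.41), with a dim second probe set at -0.49. Col6a1 was dim at 32.9 and 41.0 (0.32). So the 2 well-read chains of type VI stood lower and the third was not placed.

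Types XII, XIV and XVI belong to the collagens that sit on the surface of fibrils and link them to other matrix. Col14a1 read 252.4 in the control pool and 188.3 with squalene (-0.42), and its second probe set 71.2 and 56.1 (-0.34). Both readings are above the array medians and lie on the same side of 0. Col12a1 read 45.0 and 70.7 (0.65) and Col16a1 48.6 and 59.9 (0.30), each on 1 probe set near the median. Col13a1, a transmembrane collagen, read 59.9 and 69.6 (0.22).

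Of the other 13 collagens in this class, Col9a1 (41.3 and 19.4) and Col20a1 (45.0 and 34.1) were measured in the control pool only, with ratios of -1.09 and -0.40. A dim second probe set of Col9a1 gave 0.06. The 11 that were dim in both pools, from Col6a1 and Col7a1 to Col26a1, had signals between 1.8 and 41.0 and ratios from -2.92 to 3.44, with 6 above and 5 below 0.

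**Figure D3:**
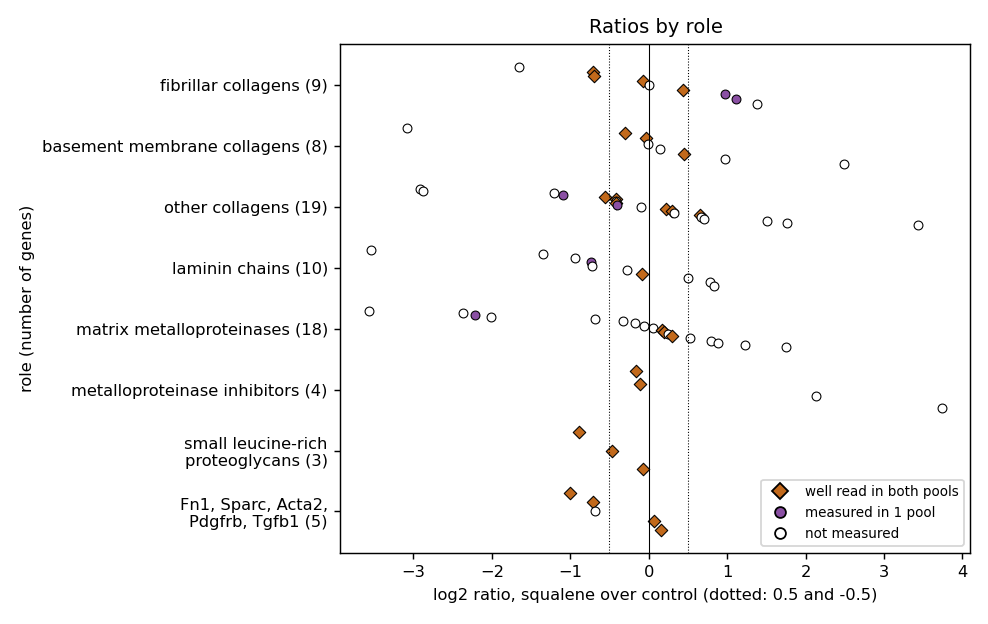
Log2 ratio of squalene over control for each of the 76 matrix genes (horizontal axis), grouped by role (rows, with the number of genes), as orange diamonds when well read in both pools, purple circles when measured in 1 pool and open circles when not measured. Diamonds beyond the dotted lines at 0.5 and -0.5 are 6 on the left and 1 on the right, and the widest scatter is that of open circles.

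Laminins, the cross-shaped proteins of basement membranes, were mostly too dim to describe. Of 10 chains, Lama5 alone was well read, at 193.3 in the control pool and 182.6 with squalene (-0.08). Lamb1 had probe sets of opposite sign, at 42.3 and 25.5 (-0.73), 19.7 and 42.4 (1.11), and 5.1 and 16.8 (1.72). The other 8 chains had signals from 2.0 to 35.2 and ratios from -3.54 to 0.83.

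Of the 18 matrix metalloproteinases 3 were well read, and all stood slightly higher, within 1 SD between probe sets. Mmp14, a membrane-bound enzyme that activates the Mmp2 proenzyme, read 177.0 in the control pool and 202.9 with squalene (0.20), and its second probe set 47.9 and 60.2 (0.33). Mmp2, a gelatinase, read 41.8 and 47.1 (0.17), but its second, dim probe set read 36.6 and 3.9 (-3.23). Mmp19 read 75.6 and 93.0 (0.30), with a dim second probe set at 0.54.

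Mmp17, a membrane-anchored member, read 44.2 in the control pool and 9.5 with squalene (-2.22) on 1 probe set and was the only measured member past 1.5. With signals floored at the array medians its ratio was -0.10. The other 14 metalloproteinase genes were dim in both pools, with 7 above and 7 below 0. They included Mmp8 and Mmp9 of neutrophils, Mmp12 of macrophages and Mmp13, the main rodent interstitial collagenase. Their signals ran from 0.6 to 31.4, and their ratios from -3.56 for Mmp13 to 1.75 for Mmp12.

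Of the 4 TIMP genes, Timp2 and Timp3 were well read and close to level. Timp2, which also helps Mmp14 to activate Mmp2, read 103.8 in the control pool and 92.5 with squalene (-0.17). The other 2 well-read probe sets of Timp2 gave 110.5 and 73.5 (-0.59) and 93.0 and 76.4 (-0.28), so all 3 lay below 0. Timp3, an inhibitor bound to the matrix, read 77.5 and 72.1 (-0.10). A second Timp3 probe set read 18.5 in the control pool and 92.5 with squalene (2.32), against the first. Timp1, which is induced in fibrosis, was dim at 5.6 and 24.6 (2.14), and Timp4 was dim with probe sets at 3.74 and -3.56.

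The small leucine-rich proteoglycans bind collagen fibrils and set their spacing. Lum, which encodes lumican, read 163.1 in the control pool and 88.5 with squalene on its single probe set, 1.84-fold lower (-0.88). Dcn, which encodes decorin and lies next to Lum in the genome, read 2540.5 and 2415.0 (-0.07), also on 1 probe set. The neighbours thus shared a sign but not a size. Bgn, which encodes biglycan, read 495.5 and 357.6 (-0.47) on the probe set used here, but 375.3 and 415.4 (0.15) and 359.0 and 410.2 (0.19) on the others. All 3 of its probe sets were well read, so its sign depends on the choice between them.

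Fn1, the fibronectin gene, read 4028.4 in the control pool and 4219.4 with squalene (0.07). A second, well-read probe set of Fn1 gave 93.2 and 158.0 (0.76). Sparc, a collagen-binding glycoprotein, read 171.0 and 191.4 (0.16), and 85.2 and 103.1 (0.28) on its other probe set. Both genes lay above 0 on each of their probe sets.

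Acta2, the actin of contractile stellate cells and smooth muscle, read 146.6 in the control pool and 73.1 with squalene, 2.01-fold lower, the lowest ratio of a well-read member. That probe set carries the suffix _s_at, which in Affymetrix naming marks probes shared by several transcripts, so related actins may add to it. A second Acta2 probe set, with the plain suffix, was dim at 10.4 and 16.1 (0.63). Pdgfrb read 75.4 and 46.3, 1.63-fold lower (-0.70), and its dim second probe set read 15.4 and 14.1 (-0.13). Tgfb1, the growth factor that drives matrix synthesis in these cells, was dim at 26.7 and 16.6 (-0.69).

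**Figure D4:**
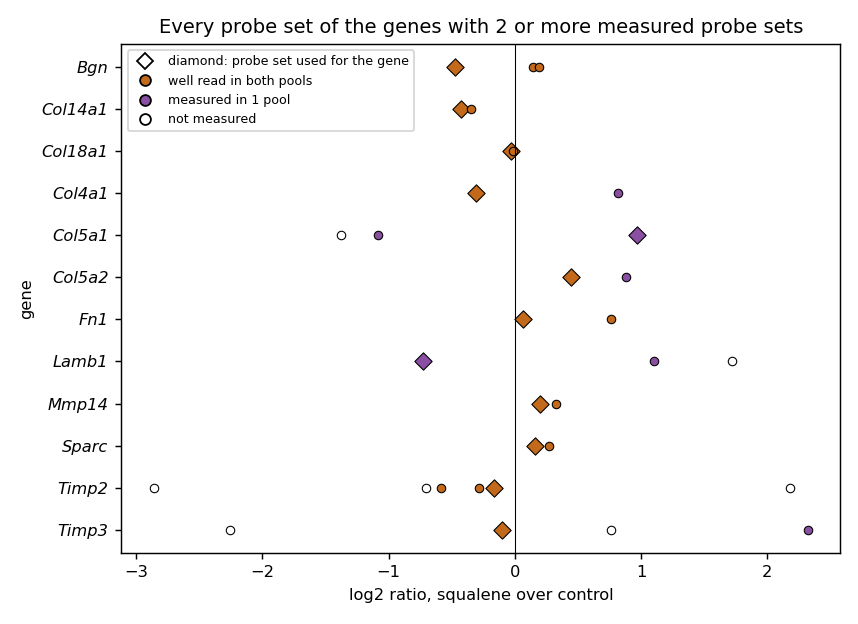
Log2 ratio of squalene over control (horizontal axis) for every probe set of the 12 matrix genes with 2 or more measured probe sets (rows); diamonds are the probe sets used for the gene, and colours give well read (orange), measured in 1 pool (purple) or not measured (white). Measured probe sets lie on both sides of 0 for Bgn, Col4a1, Col5a1, Lamb1 and Timp3, and on 1 side for the other 7 genes.

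Agreement between probe sets could be checked for 12 members with 2 or more measured probe sets. For 7 of them, Col14a1, Col18a1, Col5a2, Fn1, Mmp14, Sparc and Timp2, the measured probe sets shared a sign. For the other 5, Bgn, Col4a1, Col5a1, Lamb1 and Timp3, they did not. None of the 6 lower genes has a second measured probe set. Neighbouring members in the genome gave 14 pairs, of which 5 shared a sign, and in 9 of the pairs both genes were dim in both pools.

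Markers of stellate cells and myofibroblasts outside the member list were nearly level. Of 16 with a probe set, 6 were well read, with ratios from -0.46 to 0.29, a median of 0.01 and summed signals of 1637.8 in the control pool and 1627.4 with squalene. Reln (525.0 and 531.3) and Rgs5 (358.7 and 360.8), a pericyte gene, were level, Cygb, a stellate cell globin, stood at -0.46, Vim, an intermediate filament gene, at -0.22 and Pdgfra at 0.29. Other probe sets of Vim and Pdgfra lay across 0, at 0.20 and -0.25. Lrat and Des, which define stellate cells, were dim in both pools, as were the smooth muscle genes Tagln, Myh11 and Cnn1. Of these 6 markers 0 passed 0.5, a limit past which 6.35% of all well-read genes were lower and 7.85% higher. So few markers cannot show whether these cells differed between the pools.

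Macrophage and Kupffer cell markers read lower in the same pool as the 6 matrix genes. All 11 markers well read in both pools lay below 0, with a median of -0.68, where 3149 of all 6459 well-read genes did. Cd14 and Marco counted as measured through the control pool only. Summed over all 13 measured markers, the signal was 7042.2 in the control pool and 4543.7 with squalene. Cd14 stood lowest (-1.76) with a dim squalene signal. Lyz2, a macrophage lysozyme, read 808.8 and 384.2 (-1.07), and Msr1, a scavenger receptor, 113.0 and 45.1 (-1.33). For endothelial markers the summed signal was 2968.6 and 2247.8. Of 12 measured markers 8 lay below 0, with a median of -0.10, where 3612 of all 7330 measured genes lay below 0. Of the 11 well read, 8 lay below 0, with a median of -0.17, against 3149 of all 6459 well-read genes. Clec4g (864.9 and 522.2, -0.73) and Fcgr2b (1007.0 and 656.9, -0.62), both genes of sinusoidal endothelium, were the lowest. These 2 genes make up most of the difference between the sums, and a second Clec4g probe set gave 0.72. Vwf, with a dim control signal, stood highest at 0.81, followed by Stab1 at 0.53. The part of these cell types in the matrix results was not tested.

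Hepatocyte markers showed ratios from -0.21 to 0.07 over 10 genes, among them Alb (-0.19), Ttr (-0.21) and Cyp2e1 (-0.20). Of the 6 cholangiocyte and 5 mesothelial markers with a probe set, 0 were measured. Of 8 neutrophil markers 3 were measured, with summed signals of 159.2 in the control pool and 131.4 with squalene. S100a8 (-0.50) alone was well read. S100a9 (-1.10) had a dim squalene signal and Ngp (0.95) a dim control signal.

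Genes that fold, cross-link and trim collagen had a median log2 ratio of -0.08 among the 9 well read in both pools. Of these 9, 6 lay below 0, where 3149 of all 6459 well-read genes did. Past 0.5 the 11 measured, of 21 with a probe set, held 0 higher and 2 lower, against 11.3% and 10.4% of all measured genes. Of the 9 well read in both pools, 0 were higher and 0 lower, against 7.85% and 6.35% of all well-read genes. The 2 lower measured genes were Serpinh1, the collagen chaperone HSP47, at 52.6 in the control pool and 21.8 with squalene (-1.27), and P3h1, a prolyl hydroxylase, at 49.7 and 20.2 (-1.30). Both were dim in the squalene pool and counted as measured through the control pool only. The second probe set of Serpinh1 gave -1.04, that of P3h1 1.20. Plod3, a lysyl hydroxylase, stood at -0.26 and Crtap, the partner of P3h1, at -0.23. The cross-linking enzymes Lox and Loxl1 were dim in both pools.

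Other basement membrane and elastic fibre genes held 2 higher and 1 lower past 0.5 of 11 measured, against 11.3% higher and 10.4% lower of all measured genes. Of the 9 well read in both pools, 1 was higher and 0 lower, against 7.85% and 6.35% of all well-read genes. Fbln5, which organises elastic fibres, read 53.7 in the control pool and 91.2 with squalene (0.76), and Nid1, a laminin binder, 69.0 and 49.7 (-0.47). Emilin1 (-1.38) and Fbln1 (3.17) each had 1 dim signal, and a second Fbln1 probe set gave -0.19. Proteoglycans and matricellular genes held 2 higher and 3 lower past 0.5 of 13 measured, and 1 higher and 2 lower of the 10 well read. Omd, which encodes osteomodulin, read 144.5 and 248.8 (0.78), Postn, which encodes periostin, 89.6 and 53.1 (-0.75), and Ccn1 72.3 and 43.4 (-0.74). Ogn, another small leucine-rich proteoglycan, stood at -0.92 with a dim squalene signal.

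Matrix receptors held 0 higher and 3 lower past 0.5 of 10 measured, against 11.3% higher and 10.4% lower of all measured genes. Of the 6 well read in both pools, 0 were higher and 1 lower, against 7.85% and 6.35% of all well-read genes. Cd44, the hyaluronan receptor, read 73.8 in the control pool and 45.9 with squalene (-0.69), though its other probe set gave 0.14. The integrin genes Itga7 (-1.05) and Itga9 (-0.97) and the collagen receptor Ddr1 (-0.43) each had a dim squalene signal. The 3 probe sets of Itga9 ran from -0.97 to 0.37 and the 8 of Ddr1 from -3.16 to 3.31. Itgb1, the common beta chain, read 341.6 and 370.8 (0.12). Other matrix proteases and inhibitors held 0 higher and 1 lower past 0.5 of 13 measured, and 0 higher and 0 lower of the 11 well read. The lower measured gene was Adamts5, an aggrecan-cutting enzyme, at -0.94 with a dim squalene signal. It was followed by Ctss, a cathepsin of macrophages (-0.47), Adam15 (-0.46) and Adamts1 (-0.39). The 4 probe sets of Adam15 ran from -1.40 to 3.23.

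Genes of the transforming growth factor beta pathway were near level. Of 9 measured, 1 was higher and 0 lower past 0.5 (11.3% and 10.4% of all measured genes), with a median of -0.06. Smad2, an effector of the pathway, read 67.2 in the control pool and 97.1 with squalene (0.53). Of the receptors, Tgfbr1 stood at 0.32, though its 3 probe sets ran from -3.13 to 0.32, and Tgfbr2 at -0.23. Skil, a repressor of SMAD proteins, stood at 0.24. The inhibitor Smad7 read 80.9 and 69.5 (-0.22), and Smad3 was dim in both pools.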

How the data were processed

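Hepatic RNA of 2 pools, 1 control and 1 squalene, was read on 1 Affymetrix array each, and pools were assigned from the sample titles. The authors deposited linear intensities, 1 per probe set, computed with MAS5 per the submitters' processing notes; the sources used here do not give its version or the scanner settings. No depth applies, and the number of arrays limits the precision.

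Gene names came from the platform annotation (20380 of 22690 probe sets had a single symbol; 64 array controls were left out), and all 76 members matched the RefSeq gene table (GRCm38.p6) by Entrez number, which gave neighbours. Log2 ratios took no pseudocount. Described by name were all well-read members, measured members past 0.5, the 8 individually named genes, members with measured probe sets of opposite sign, and up to 4 genes per related list and 3 per marker list with the largest ratios; others were chosen after their values were seen. The members and lists were chosen with earlier results of these data known. Counting was tested on simulated data. Alternatives were filters, a floor, a pseudocount, scalings and other probe sets. Python 3.11.15, numpy 2.4.6, pandas 2.3.3, matplotlib 3.10.9 and limma 3.58.1 in R 4.3.3 were used.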

Additional observations from a re-analysis of the deposited data

How the results depend on the processing

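Counts over all members depend on dim signals. The count past 1.5, 16 without a filter, was 1 over members measured in at least 1 pool, 0 over well-read members, over those at the 75th percentile of signal or over those with a mean signal at the median, 0 with signals floored at the array medians, and 9 with a pseudocount of 3.0. The 20 higher and 23 lower past 0.5 became, in that order of filters, 3 and 9, 1 and 6, 0 and 1, and 2 and 6, and with the floor 2 and 6. Scaled to the spike-ins, the lower count was 15, and the median log2 ratio was 0.19 over all members and 0.18 over well-read members. Among well-read members, the 6 lower were 2 with that scaling and 3 when each gene took its smallest ratio, and the 1 higher was 5 with that scaling and 2 with either the averaged probe sets or the smallest ratio. The median over all members was 0.051 with the floor, where a gene dim in both pools takes the ratio of the array medians, and 0.053 when each gene took its smallest ratio. Acta2 read 0.63 on its plain-suffix probe set, which also has its smallest ratio. Col5a1 read -0.50 and Lamb1 0.70 with the mean of their probe sets, Lamb1 1.11 over plain-suffix probe sets, and Col9a1 0.056 with the smallest ratio or plain suffix. With the floor Col9a1 read 0.0017 and Tgfb1 0.051. Of 293 ratios of 33 named members recomputed under 9 settings, 15 kept their sign but no longer passed 0.5. In all, 22 turned sign, 9 of them from a ratio past 0.5 (the values above) and 13 from a smaller ratio, 6 of the 22 with spike-in scaling. Of the 6 lower genes, 4 stayed past 0.5 with the mean of their probe sets (Acta2 and Pdgfrb did not) and 3 over plain-suffix probe sets (Col3a1, Col6a3 and Lum), and all 6 did with the pseudocount, quantile normalization and loess. The floor cannot alter genes with both signals above it. The counts over well-read members and the filter on mean signal were chosen after seeing the data. No replicate could be left out, and no paired analysis was possible because each pool has 1 array.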
